A study of Saccharomyces cerevisiae with 34 samples.

Results

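The nuclear genes for the respiratory chain and the ATP synthase of budding yeast (Saccharomyces cerevisiae) were followed through ER stress. They were chosen as 42 listed genes by their systematic names, and all 42 were found among the 6679 genes measured. The set holds 3 NADH dehydrogenases, 4 subunits of complex II, 9 of complex III, 2 cytochromes c, 10 genes of complex IV and 14 of the ATP synthase. Each gene was measured as mRNA and as ribosome footprints, the stretches of mRNA that ribosomes protect from nuclease. Values were in RPKM, reads scaled to the length of the gene and to the total of the library, so levels can be set side by side between genes.

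The respiratory chain sits in the inner mitochondrial membrane. NADH and succinate give their electrons to ubiquinone, complex III passes them to cytochrome c, and complex IV passes them to oxygen. Complexes III and IV pump protons, and the ATP synthase uses the return of those protons to make ATP. Budding yeast has no proton-pumping complex I and uses single-chain NADH dehydrogenases in its place. With ample glucose it mainly ferments, and many respiratory genes are then held below their level on non-fermentable carbon. DTT reduces disulfide bonds and tunicamycin (Tm) blocks N-glycosylation, so both hinder protein folding in the ER. The yeast unfolded protein response runs through the transcription factor Hac1.

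All cells were of the SK1 background and grew exponentially in YEPD at 30C. In the auxin experiment, Hac1 was depleted in "+TIR" cells given 500 µM auxin with 4 µM IP6, and retained in "no TIR" cells given the same. Auxin-induced depletion needs the TIR protein, which "no TIR" cells lack. The labels do not describe the tag on Hac1 or the promoter that drives TIR. Of each strain, 1 auxin-treated subculture received 5 mM DTT and another received nothing more, and a vehicle-treated subculture (DMSO and water) received 5 mM DTT. Libraries were labelled 1 h or 2 h. Each of these 6 groups had 1 library per hour for each molecule, except that the "no TIR" auxin group without DTT had the 1 h library only. In the deletion experiment, cells with hac1 deleted and WT cells each received 5 mM DTT, 2 µg/mL Tm or nothing, with 1 library per group and molecule. The titles of these 12 libraries and their molecule subtype label name opposite molecules, and the titles were followed, so mRNA, footprints and their ratio in this experiment rest on the titles. By the titles, HAC1 in untreated WT cells had 178 footprint RPKM and 2372 mRNA RPKM. In the auxin libraries without DTT, where title and label agree, it had 380.0 to 568 and 5829 to 6222. The auxin experiment holds 22 libraries and the deletion experiment 12. The labels do not say that the 1 h and 2 h libraries came from separate cultures, so p-values measure only the spread between these libraries.

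The read depth estimated from the steps of low RPKM values was 10.2 to 32.4 M (mega) gene-assigned reads per mRNA library and 6.46 to 36.6 M per footprint library in the auxin experiment. In the deletion experiment it was 16.0 to 19.1 M and 8.36 to 27.5 M. HAC1 mRNA was 5.43 to 42.1 RPKM in hac1 deletion libraries and 2372 to 5216 RPKM in WT libraries. HAC1 reads do not check the depletion of Hac1 protein in "+TIR" cells. The WT libraries of the deletion experiment stood apart in mating-type genes. The summed mRNA of 6 genes that mark MATa cells was 110 (DTT), 124 (Tm) and 87.2 RPKM (untreated) in hac1 deletion cells, and 960.1, 2045 and 2638 RPKM in WT cells. The sum of 4 MATalpha genes was 17.6 to 43.4 RPKM over those 6 libraries. In the auxin experiment the MATa sum was 53.2 to 97.0 RPKM and the MATalpha sum 18.3 to 37.6 RPKM. Mating type or ploidy therefore cannot be told apart from the deletion of hac1. Under DTT the median of all genes moved by 0.24 (mRNA) and 0.34 (footprints) on the log2 scale with Hac1 retained, and by 0.26 and 0.29 with Hac1 depleted. Rescaling each library to its median gene took these medians to about zero. It also changed the split of genes called lower and higher. With Hac1 depleted it gave 1567 and 1529 for mRNA in place of 1008 and 2364, and 1778 and 1673 for footprints in place of 1058 and 2649. With Hac1 retained it gave 1063 and 935 for mRNA in place of 691 and 1647, and 1424 and 1415 for footprints in place of 782 and 2537. In the deletion experiment, mRNAs past 2-fold under DTT in WT cells went to 703 lower and 654 higher in place of 389 and 1049, and footprints to 730 and 692 in place of 382 and 1113. In hac1 deletion cells they went to 371 and 431 in place of 283 and 530 (mRNA), and to 412 and 458 in place of 277 and 582 (footprints).

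Without DTT, footprint levels of the subunits of one complex were unequal. Footprint RPKM, the level of ribosomes per length of gene, is the closest measure here to synthesis. Over the 3 auxin libraries without DTT, the 14 ATP synthase genes spanned a footprint level from 1604 ± 99.5 RPKM for ATP3, the gamma subunit of the central stalk, to 4181 ± 166 RPKM for ATP1, the alpha subunit of the catalytic head (SD, n = 3). The highest was 2.61 times the lowest. ATP2, the beta subunit of the head, had 4021 ± 221 footprint RPKM, and its difference from ATP1 was within their spread. ATP1 and ATP2 are each present in several copies per enzyme, while ATP3 is present once. Between them lay membrane sector genes such as ATP18 (3443 ± 277), TIM11 (3368 ± 433) and ATP17 (3312 ± 122 footprint RPKM). Whether levels follow copy number was not tested. Complex II was the lowest of the multi-subunit complexes by median, with a footprint level from 467 ± 24.1 RPKM for SDH1, its flavoprotein, to 1067 ± 34.7 RPKM for SDH3, a membrane anchor. Complex III spanned a wider range, from 1784 ± 46.2 footprint RPKM for QCR2, a core protein, to 9309 ± 1307 for QCR9, a small subunit, a ratio of 5.22. Complex IV apart from COX5B ran from 1714 ± 220 footprint RPKM for COX26 to 6137 ± 206 for COX7.

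Wider gaps lay between isoforms. CYC1, the main cytochrome c, had the highest footprint level of all 42 genes, 10593 ± 991 RPKM, against 532 ± 70.1 RPKM for CYC7, the second isoform. The next highest was QCR9, which differed from CYC1 by less than the sum of their SDs. COX5A and COX5B encode the aerobic and the hypoxic form of one complex IV subunit. COX5A stood at 5203 ± 251 footprint RPKM and COX5B at 86.6 ± 3.62. NDE1 and NDE2, which both oxidise NADH on the outer face of the inner membrane, stood at 1364 ± 57.0 and 29.6 ± 4.83 footprint RPKM.

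DTT lowered nearly the whole set, both in the Hac1-depleted and in the Hac1-retained strain. With Hac1 depleted, mRNA of 37 genes fell and that of 1 rose, where 17.5% of all genes tested were called lower and 41.1% higher (adjusted p under 0.05, limma with Benjamini-Hochberg adjustment over all genes tested, hour in the model). The median mRNA change of the 42 genes was -1.01, against 0.26 over all genes. With Hac1 retained, mRNA of 40 genes fell and none rose, where 12.0% of all genes were called lower and 28.6% higher. The median change was -1.32, against 0.24. Every change is a difference of log2(RPKM + 1) values. In a bulk culture, fewer cells of a type and less RNA per cell cannot be told apart.

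Footprints followed the same course. With Hac1 depleted, footprints of 39 genes fell and those of 1 rose, against 19.8% and 49.6% of all genes. The median change was -0.86, against 0.29 over all genes. With Hac1 retained, footprints of 38 genes fell and none rose, against 14.6% and 47.5% of all genes. The median change was -1.33, against 0.34. After rescaling to the median gene, 40 mRNAs and 41 footprint values fell in either strain, and COX5B was the gene that still rose, in footprints with Hac1 depleted.

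The shift was visible in single libraries. For mRNA, 39 of the 42 genes were lower in all 8 libraries with DTT than in all 3 without, where 16.6% of all genes had that order. SDH4 and ATP15 overlapped, and COX5B was higher in all 8. For footprints, 37 genes had that order, where 18.6% of all genes did. SDH4, CYC7, ATP15 and TIM11 overlapped, and COX5B was again higher in all 8. The share of all genes higher in all 8 is not given here. Many genes were called higher with DTT, 28.6 to 49.6% by strain and molecule. The share of all gene-assigned mRNA signal that the set took was 0.775% (1 h) and 0.775% (2 h) with Hac1 depleted under DTT, against 1.37% and 1.46% in the same strain without DTT. It was 0.602% and 0.672% with Hac1 retained under DTT, against 1.45% without. The vehicle groups with DTT, which also keep Hac1, had 0.652% and 0.881% in "+TIR" cells and 0.592% and 0.840% in "no TIR" cells. Footprint shares were 0.969% and 0.983% with Hac1 depleted under DTT, against 1.70% and 1.87% without. They were 0.736% and 0.846% with Hac1 retained under DTT, against 1.80% without, and 0.826%, 1.08%, 0.765% and 1.03% in the same 4 vehicle libraries. In both molecules the 2 h vehicle libraries had a larger share than the Hac1-depleted libraries with DTT, and the 1 h ones a smaller share.

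Among the NADH dehydrogenases, which feed electrons from NADH to ubiquinone, all 3 fell in mRNA and in footprints in both strains. NDE1 had 686 (1 h) and 659 (2 h) mRNA RPKM with Hac1 depleted under DTT, against 1227 and 1272 in that strain without DTT. It had 369.9 and 494 with Hac1 retained under DTT, against 1308 without. In the vehicle groups with DTT it had 398 and 767 in "+TIR" cells and 375 and 595 in "no TIR" cells. All 8 values with DTT were thus below the 3 without. The change was -0.89 ± 0.22 (SE, adjusted p = 0.00431) with Hac1 depleted and -1.81 ± 0.27 (adjusted p = 0.000436) with Hac1 retained, by limma.

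NDE2 was a rare message throughout. Its mRNA was 16.0 and 15.2 RPKM with Hac1 depleted under DTT, against 27.9 and 42.2 without, and 9.83 and 14.8 with Hac1 retained under DTT, against 28.7 without. Under DTT with vehicle it was 12.4 and 20.7 in "+TIR" cells and 9.85 and 25.1 in "no TIR" cells, and again no value with DTT reached those without. It fell by 1.09 ± 0.28 with Hac1 depleted (adjusted p = 0.00602, limma), the largest mRNA change of the 3 in that strain, and by 1.49 ± 0.35 with Hac1 retained (adjusted p = 0.00641). Without the hour in the model NDE2 mRNA was not called in either strain. NDI1, which oxidises NADH on the matrix side, changed by -0.70 ± 0.18 and -1.20 ± 0.23. In footprints NDE1 led the 3 genes, at -1.49 ± 0.19 with Hac1 depleted and -2.14 ± 0.24 with Hac1 retained.

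Complex II, succinate dehydrogenase, which also belongs to the citric acid cycle, was split. Its flavoprotein SDH1, iron-sulfur protein SDH2 and anchor SDH3 fell in both strains and both molecules, while the second anchor SDH4 was not called in any of the 4 tests. SDH3, which had the highest mean mRNA level of the 4 over all auxin libraries, had 509 and 379 mRNA RPKM with Hac1 depleted under DTT, against 762 and 781 without. It had 409.9 and 374 with Hac1 retained under DTT, against 721 without, and 464, 432, 432 and 433 in the 4 vehicle libraries with DTT. The groups with and without DTT did not overlap.

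SDH4 mRNA was 341 and 289 RPKM with Hac1 depleted under DTT, against 277 and 314 without, and 239.7 and 264 with Hac1 retained under DTT, against 267 without. The change was 0.09 ± 0.16 (adjusted p = 0.65, limma) with Hac1 depleted and -0.17 ± 0.21 (adjusted p = 0.524) with Hac1 retained. In footprints it was -0.02 ± 0.14 and -0.14 ± 0.18. A p that misses the threshold does not show that a gene stayed the same. The largest mRNA change of complex II with Hac1 depleted was that of SDH2, -1.44 ± 0.15 (adjusted p = 2.07e-05, limma). With Hac1 retained it was that of SDH1, -1.74 ± 0.28 (adjusted p = 0.000694). In footprints SDH1 changed most, by -2.04 ± 0.17 with Hac1 depleted and -2.15 ± 0.21 with Hac1 retained.

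Complex III, the cytochrome bc1 complex, fell as a block: all 9 genes were called lower in both molecules and both strains. Its median mRNA change was -1.05 with Hac1 depleted and -1.55 with Hac1 retained, and its median footprint change was -1.14 and -1.50. RIP1, the Rieske iron-sulfur protein, led in mRNA with Hac1 depleted at -1.40 ± 0.17 (adjusted p = 5.59e-05, limma). CYT1, cytochrome c1, led in the other 3 comparisons. CYT1 mRNA was 675 and 476 RPKM with Hac1 depleted under DTT, against 1175 and 1117 without, and 271 and 416 with Hac1 retained under DTT, against 1242 without. Under DTT with vehicle it was 316 and 461 in "+TIR" cells and 308 and 402 in "no TIR" cells. The 1 h library with Hac1 depleted was thus the highest of those with DTT. CYT1 mRNA changed by -1.98 ± 0.30 with Hac1 retained (adjusted p = 0.00042). Its footprints changed by -1.69 ± 0.18 with Hac1 depleted and -2.26 ± 0.22 with Hac1 retained.

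QCR9, the message with the highest mean level of the set, had 2797 and 3604 mRNA RPKM with Hac1 depleted under DTT, against 7463 and 8551 without. It had 2682 and 3312 with Hac1 retained under DTT, against 8382 without. The vehicle libraries with DTT had 3053 and 4194 in "+TIR" cells and 2456 and 4419 in "no TIR" cells. In both vehicle pairs and both auxin pairs with DTT the 2 h library was the higher one.

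Cytochrome c is the mobile carrier between complexes III and IV. CYC1 had 2031 and 1497 mRNA RPKM with Hac1 depleted under DTT, against 5425 and 4376 without, and 1435 and 1826 with Hac1 retained under DTT, against 7622 without. Vehicle-treated cells with DTT had 1228 and 2189 in "+TIR" cells and 1407 and 2114 in "no TIR" cells. No library with DTT reached a level seen without it. CYC1 mRNA changed by -1.48 ± 0.26 with Hac1 depleted (adjusted p = 0.000636, limma) and by -2.34 ± 0.33 with Hac1 retained (adjusted p = 0.000307). Its footprints changed by -1.74 ± 0.13 and -2.14 ± 0.17.

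CYC7 mRNA was 277 and 270.0 RPKM with Hac1 depleted under DTT, against 719.8 and 906 without, and 359 and 397 with Hac1 retained under DTT, against 787 without. Under DTT with vehicle it was 441 and 556 in "+TIR" cells and 378 and 671 in "no TIR" cells. The mRNA change was -1.56 ± 0.18 with Hac1 depleted (adjusted p = 3.83e-05, limma) and -1.22 ± 0.23 with Hac1 retained (adjusted p = 0.00182). Its footprints were 387 and 279 RPKM with Hac1 depleted under DTT, against 467 and 606 without. They were 310.0 and 422 with Hac1 retained under DTT, against 521 without. The footprint change was -0.69 ± 0.23 (adjusted p = 0.0253, limma) with Hac1 depleted and -0.65 ± 0.29 (adjusted p = 0.081) with Hac1 retained.

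Complex IV, cytochrome c oxidase, held both extremes of the set. COX26, a small subunit, had the largest fall of all 42 genes in each of the 4 tests. Its mRNA was 213 and 252 RPKM with Hac1 depleted under DTT, against 2018 and 2607 without, and 315 and 325 with Hac1 retained under DTT, against 2338 without. Its footprints were 223 and 188 RPKM with Hac1 depleted under DTT, against 1525 and 1662 without. They were 230.4 and 226 with Hac1 retained under DTT, against 1955 without. The libraries with and without DTT lay far apart, also with vehicle (mRNA of 348, 312, 242 and 493 RPKM). The mRNA change was -3.30 ± 0.23 (adjusted p = 1.07e-06, limma) with Hac1 depleted and -3.02 ± 0.29 (adjusted p = 1.68e-05) with Hac1 retained. The footprint change was -2.95 ± 0.15 and -3.15 ± 0.19.

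**Figure D1:**
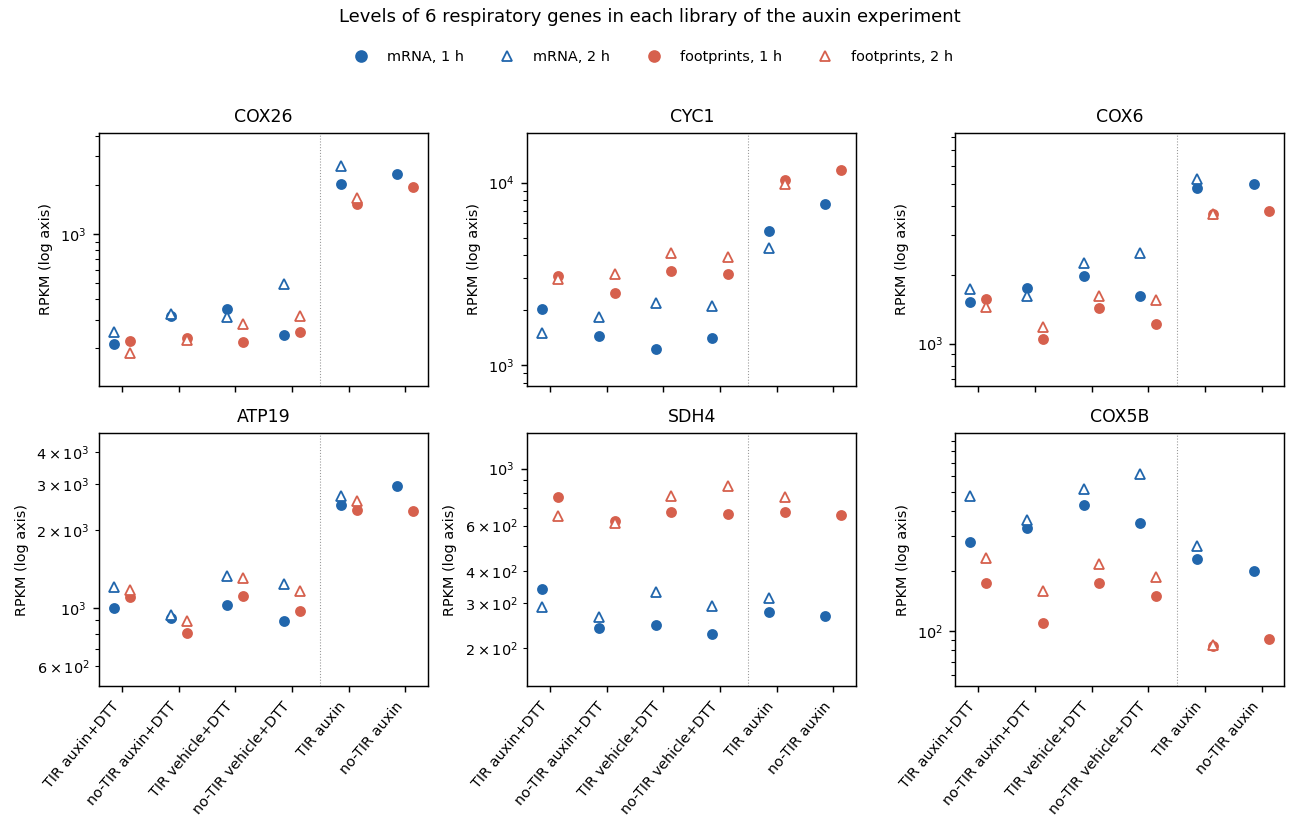
RPKM of COX26, CYC1, COX6, ATP19, SDH4 and COX5B in every auxin-experiment library, groups with DTT on the left and groups without on the right (log axis, with TIR for "+TIR" and no-TIR for "no TIR" cells). COX26 mRNA lies at 213 to 493 with DTT and at 2018 to 2607 without, SDH4 overlaps, and COX5B is higher with DTT.

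COX6, a core nuclear subunit and the most abundant complex IV message over all auxin libraries, had 1527 and 1729 mRNA RPKM with Hac1 depleted under DTT, against 4803 and 5221 without. It had 1759 and 1619 with Hac1 retained under DTT, against 4965 without. Under DTT with vehicle it had 1981 and 2257 in "+TIR" cells and 1622 and 2486 in "no TIR" cells. The 8 values with DTT were all below the 3 without. The other complex IV genes apart from COX5B (COX4, COX5A, COX7, COX8, COX9, COX12 and COX13) fell in both molecules and both strains, by 0.34 (COX9 footprints, Hac1 depleted) to 1.85 (COX12 mRNA, Hac1 retained).

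COX5B moved against its complex. Its mRNA was 279 and 476 RPKM with Hac1 depleted under DTT, against 229.8 and 265 without, and 327 and 362 with Hac1 retained under DTT, against 199 without. In the vehicle groups with DTT it was 427 and 515 in "+TIR" cells and 347 and 615 in "no TIR" cells. Its footprints were 175 and 233 RPKM with Hac1 depleted under DTT, against 84.2 and 84.9 without. They were 109 and 158 with Hac1 retained under DTT, against 90.8 without. With vehicle and DTT its footprints were 173 and 216 in "+TIR" cells and 149.8 and 186 in "no TIR" cells. The lowest library with DTT stood above the highest without in both molecules, an order whose share over all genes is not given here. With Hac1 depleted, COX5B rose by 0.56 ± 0.18 in mRNA (adjusted p = 0.0216, limma) and by 1.25 ± 0.12 in footprints (adjusted p = 5.87e-05). With Hac1 retained the changes were 0.56 ± 0.23 (adjusted p = 0.071) and 0.37 ± 0.15 (adjusted p = 0.0666). The mRNA rise with Hac1 depleted was not called after rescaling to the median gene, where it was 0.30 (adjusted p = 0.186), or without the hour in the model (adjusted p = 0.14).

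Its counterpart COX5A had 1442 and 1525 mRNA RPKM with Hac1 depleted under DTT, against 4282 and 5211 without, and 1438 and 1505 with Hac1 retained under DTT, against 4297 without. Vehicle-treated cells with DTT had 1643 and 1788 in "+TIR" cells and 1386 and 1932 in "no TIR" cells. All 8 values with DTT lay well under the 3 without. The change was -1.67 ± 0.14 (adjusted p = 4.74e-06, limma) with Hac1 depleted and -1.65 ± 0.18 (adjusted p = 4.81e-05) with Hac1 retained.

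The balance between isoforms is given as the level of the minor form in percent of the major one. COX5B mRNA stood at 19.3 to 31.8% of COX5A mRNA over the 8 auxin libraries with DTT, against 4.64 to 5.37% over the 3 without. Its footprints stood at 5.59 to 10.1% with DTT, against 1.64 to 1.69% without. CYC7 footprints stood at 9.43 to 15.0% of CYC1 footprints with DTT, against 4.45 to 6.18% without, while for mRNA the ranges overlapped (13.6 to 35.9% against 10.3 to 20.7%). NDE2 mRNA stood at 2.31 to 4.22% of NDE1 mRNA with DTT, against 2.20 to 3.32% without, which also overlapped. COX5B and CYC7 are known as genes kept low when oxygen is present. How reads that match both genes of a pair were assigned is not stated, so the split within a pair is uncertain to that extent.

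**Figure D2:**
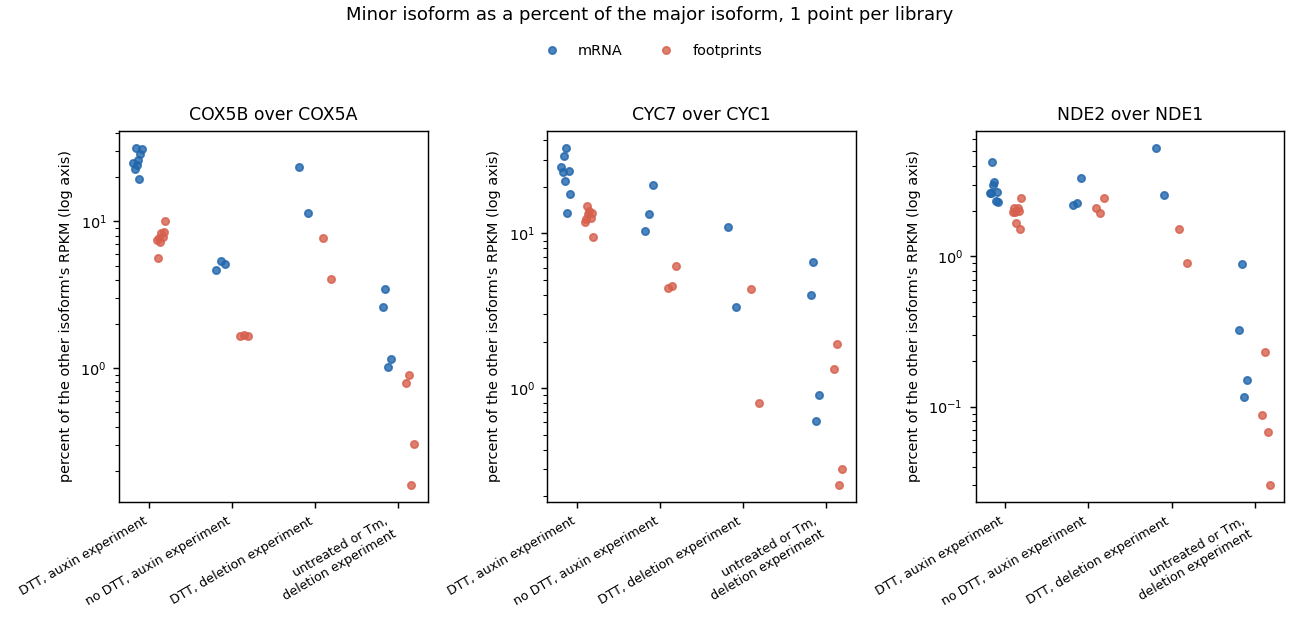
Level of the minor isoform as a percent of the major one in every library (log axis), mRNA and footprints, libraries with DTT left of those without in each experiment. COX5B lies at 19.3 to 31.8% of COX5A in mRNA with DTT in the auxin experiment and at 4.64 to 5.37% without.

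The ATP synthase had a smaller median fall than complex III. Its median mRNA change was -0.68 with Hac1 depleted and -1.10 with Hac1 retained, with 11 and 14 of 14 genes called lower. Its median footprint change was -0.65 and -1.06, with 13 called lower in each strain. ATP19, subunit k of the membrane sector, led in 3 of the 4 tests. Its mRNA was 1000.0 and 1213 RPKM with Hac1 depleted under DTT, against 2506 and 2702 without, and 919 and 940.1 with Hac1 retained under DTT, against 2949 without. ATP19 mRNA changed by -1.79 ± 0.19 with Hac1 retained (adjusted p = 3.06e-05, limma). Its footprints changed by -1.13 ± 0.09 (adjusted p = 1.96e-05) with Hac1 depleted and by -1.57 ± 0.11 (adjusted p = 2.42e-05) with Hac1 retained. With Hac1 depleted the largest mRNA change was that of ATP17, subunit f of the same sector, at -1.29 ± 0.17 (adjusted p = 9.94e-05). ATP17 mRNA in that strain under DTT was 1549 RPKM at 1 h and 2413 at 2 h, against 2585 and 2963 with vehicle.

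The messages of the catalytic head were among those not called with Hac1 depleted. ATP1 mRNA was 1622 (1 h) and 1237 (2 h) RPKM in that strain under DTT, against 1762 and 1873 without. ATP2 mRNA was 1887 and 1616 RPKM, against 2285 and 2346. For both the gap was smaller at 1 h than at 2 h, and all 8 libraries with DTT lay below the 3 without. In vehicle-treated "+TIR" cells with DTT, ATP1 mRNA was 840 (1 h) and 1296 (2 h) RPKM and ATP2 mRNA 1076 and 1675. The Hac1-depleted values thus stood above those with vehicle at 1 h only, in 1 library. Whether gene length bears on this difference in mRNA was not tested. ATP1 mRNA changed by -0.36 ± 0.20 (adjusted p = 0.149, limma) with Hac1 depleted and by -1.14 ± 0.26 (adjusted p = 0.00485) with Hac1 retained. ATP2 mRNA changed by -0.41 ± 0.19 (adjusted p = 0.0847) and -1.14 ± 0.24 (adjusted p = 0.00332). Their footprints fell in both strains, ATP1 by 0.86 ± 0.12 with Hac1 depleted and ATP2 by 0.90 ± 0.13. ATP15, the epsilon subunit of the central stalk, was the other message not called with Hac1 depleted (-0.32 ± 0.17). The stator genes ATP4, ATP5, ATP7 and ATP14 and the central stalk genes ATP3 and ATP16 fell in both molecules and both strains.

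TIM11, subunit e, which takes part in dimerisation of the enzyme, had the highest mean mRNA level of the ATP synthase genes over the auxin libraries. In untreated cells of the deletion experiment ATP17 was higher, with a mean of 3895 mRNA RPKM over hac1 deletion and WT cells, against 3441 for TIM11. TIM11 mRNA was 2249.6 and 2753 RPKM with Hac1 depleted under DTT, against 4268 and 4943 without, and 2722 and 2388 with Hac1 retained under DTT, against 4375 without. Vehicle libraries with DTT gave 2537 and 2909 in "+TIR" cells and 2237 and 3045 in "no TIR" cells. The message fell by 0.88 ± 0.16 with Hac1 depleted (adjusted p = 0.000584, limma). Its footprints did not separate: 3418 and 3126 RPKM with Hac1 depleted under DTT, against 3011 and 3849 without, and 2747 and 2584 with Hac1 retained under DTT, against 3243 without. The footprint change was -0.06 ± 0.14 (adjusted p = 0.722) with Hac1 depleted and -0.35 ± 0.17 (adjusted p = 0.112) with Hac1 retained.

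Footprints per mRNA, called translational efficiency, were compared as the difference of the log2 values of matching libraries. With Hac1 depleted, DTT lowered it for 5 genes and raised it for 7, where 6.46% and 12.5% of all genes were called. The genes that went down were longer than those that went up, and over all genes the change also ran against length (below). SDH1 fell by 0.85 ± 0.17 (adjusted p = 0.00604, limma), CYT1 by 0.68 ± 0.17 (adjusted p = 0.0162) and NDE1 by 0.60 ± 0.13 (adjusted p = 0.00976), with QCR2, a core protein of complex III, and ATP2 also called lower. CYC7 rose by 0.86 ± 0.16 (adjusted p = 0.00374), TIM11 by 0.83 ± 0.16 (adjusted p = 0.00396), ATP17 by 0.75 ± 0.17 (adjusted p = 0.0104), COX5B by 0.69 ± 0.19 (adjusted p = 0.0242) and QCR9 by 0.53 ± 0.17 (adjusted p = 0.0398). COX4 and COX5A were also called higher, and all 10 complex IV genes had a change above 0. The annotated length of the 5 genes that fell was 930 to 1923 nt (median 1536), and that of the 7 that rose was 291 to 544 nt (median 414).

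With Hac1 retained, no member was called for translational efficiency (limma), 3 of 42 had an unadjusted p under 0.05, and 3.32% of all genes were called. Over the 42 genes, the change ran against gene length with a Spearman rho of -0.628 with Hac1 depleted and -0.682 with Hac1 retained. Over 5234 genes with a RefSeq length it was -0.507 and -0.073. These rho values are descriptions: every gene is read from the same few libraries, and length also sets RPKM. The calls with Hac1 depleted rested on single libraries. None was called when the 1 h library with DTT of the Hac1-depleted strain was left out. Leaving out its 1 h library without DTT gave 5 calls, and leaving out its 2 h library without DTT gave 2.

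**Figure D3:**
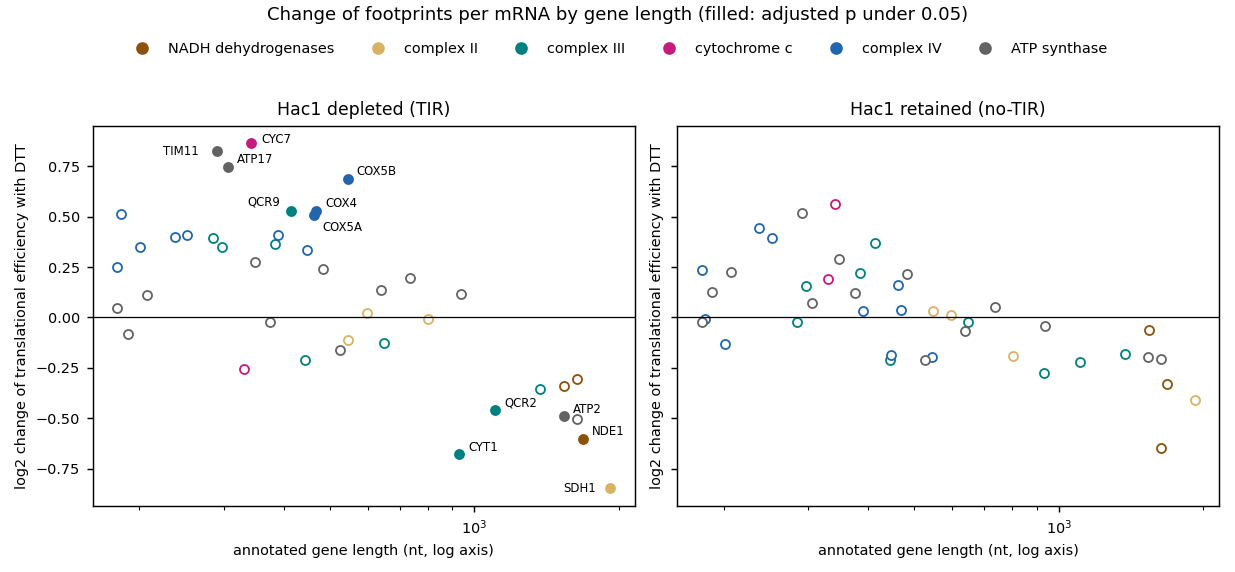
Log2 change of translational efficiency with DTT against annotated gene length (log axis) for the 42 genes, Hac1 depleted on the left and Hac1 retained on the right, filled where called. The 5 genes called lower are 930 to 1923 nt long and the 7 called higher 291 to 544 nt, and none is called with Hac1 retained. With Hac1 depleted, 6.46% of all genes were called lower and 12.5% higher.

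Across the 42 genes the mRNA change and the footprint change went together, with Pearson's r of 0.764 with Hac1 depleted and 0.910 with Hac1 retained. These are descriptions over genes that share libraries.

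The next question was whether Hac1 bears on the fall. Under DTT and auxin, most of the set had higher values in the Hac1-depleted strain than in the Hac1-retained strain. Footprints of 6 genes were called higher, where 3.82% of all genes were, and 40 of the 42 differences were above 0, with a median of 0.32 against 0.02 over all genes. QCR8, a small subunit of complex III, had 3245 and 3433 footprint RPKM with Hac1 depleted, against 1689 and 2339 with Hac1 retained, a difference of 0.75 ± 0.13 (adjusted p = 0.0116, limma). COX5B differed by 0.62 ± 0.12 (adjusted p = 0.0184) and ATP19 by 0.43 ± 0.09 (adjusted p = 0.0203), and the central stalk genes ATP3 and ATP16 and the stator gene ATP5 were also called. With the hour left out of the model, none of the 6 was called. Leaving out either 1 h library of these groups gave no call, and leaving out either 2 h library gave 2.

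In mRNA, no member was called between the strains under DTT (limma), where 6.08% of all genes were. Of the 42 genes, 10 had an unadjusted p under 0.05, 35 differences were above 0, and the median was 0.22 against 0.02. Without the 2 h library with Hac1 depleted under DTT, 4 were called. In translational efficiency none was called, 7 had an unadjusted p under 0.05, and 0.244% of all genes were called.

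The difference between the 2 DTT responses was tested directly as an interaction. No member was called in mRNA, footprints or translational efficiency by limma, where 1.06%, 2.49% and 0.225% of all genes were. The numbers with an unadjusted p under 0.05 were 8, 17 and 3. The response was above that of the Hac1-retained strain, mostly a smaller fall, for 36 of 42 genes in mRNA (median 0.37) and 41 of 42 in footprints (median 0.44). The largest footprint difference was that of COX5B, 0.88 ± 0.20 (adjusted p = 0.0636), and the largest in mRNA that of CYT1, 0.97 ± 0.38 (adjusted p = 0.302). For CYT1 mRNA the 1 h library with Hac1 depleted under DTT, at 675 RPKM, was the highest of the 8 with DTT. The Hac1-retained baseline is 1 library, of 1 h. With the hour left out of the model, the members' median difference was 0.21 in mRNA and 0.32 in footprints. Without the 1 h library of "+TIR" cells with auxin alone, 9 footprint differences were called, and without the 2 h one, 1.

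Within "+TIR" cells under DTT, auxin against vehicle lowered 1 member, CYC7, in mRNA: 277 and 270.0 RPKM with auxin, against 441 and 556 with vehicle. The change was -0.86 ± 0.18 (adjusted p = 0.0196, limma), and 5.99% of all genes were called. The 1 call among the 42 members is not above that background. Over the set the median change was -0.06 in mRNA, with 15 of 42 above 0, and 0.04 in footprints, with 26 of 42 above 0. The same comparison in "no TIR" cells had medians of -0.15 and -0.20, with 1 and 3 of 42 above 0. This comparison within "+TIR" cells and the one between strains share the Hac1-depleted libraries with DTT. It was not called with the hour left out of the model or without either vehicle library, and without the 2 h auxin library 3 members were called. In footprints and translational efficiency no member was called, with an unadjusted p under 0.05 for 2 and 7, where 6.61% and 0.263% of all genes were called.

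In the controls for auxin and for the strain no member was called. In "no TIR" cells under DTT, auxin against vehicle gave no calls among the members in mRNA, footprints or translational efficiency (limma), and 0.00%, 0.00% and 0.0188% of all genes. Of the members, 2, 9 and 0 had an unadjusted p under 0.05. With auxin alone, "+TIR" against "no TIR" cells gave no member called either, and 0.00%, 0.0749% and 0.188% of all genes. Of the members, 1, 0 and 0 had an unadjusted p under 0.05.

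At 2 h against 1 h, compared over groups that mostly had DTT, some messages were higher. Only "+TIR" cells with auxin alone had both hours without DTT. Their hour change had little correlation with that of the groups with DTT (r of -0.094 to 0.186 in mRNA, 0.019 to 0.057 in footprints). In mRNA 5 genes were called higher, where 4.55% of all genes were: QCR9, COX5B, COX7, COX12 and ATP15, by 0.37 to 0.48. In footprints 11 of 42 were called higher, where 14.5% of all genes were. In translational efficiency none was called (limma), 2 had an unadjusted p under 0.05, and 0.0751% of all genes were called. Leaving out either "+TIR" library with auxin alone gave 10 calls in mRNA and 21 in footprints. Leaving out any 1 of the 8 libraries with DTT gave none in either molecule.

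In the deletion experiment, with 1 library per group, most values were again lower with DTT, and no member passed 2-fold with Tm. There is no test here, and genes were counted past 2-fold. Under DTT in hac1 deletion cells, 23 of 42 mRNAs were past 2-fold lower and 2 higher, where 4.97% and 9.31% of all genes were, with a median of -1.24 against 0.16 over all genes. In WT cells under DTT, 32 were lower and 2 higher, where 6.83% and 18.4% of all genes were, with a median of -1.34 against 0.30. Footprints had 25 lower and 1 higher of 41 in hac1 deletion cells, where 5.23% and 11.0% of all genes were. They had 27 lower and 1 higher of 41 in WT cells, where 7.22% and 21.0% were. NDE2, 1 of the 2 mRNAs past 2-fold higher in each strain, had an estimated 13 to 79 mRNA reads per library. It was too low in footprints to be kept. COX5B had an estimated 23 to 302 footprint reads per library in this experiment and CYC7 had 32 to 105, so their translational efficiency rests on few reads. In translational efficiency, COX5B alone of 41 genes was past 2-fold in hac1 deletion cells (1.16, with 1.80% of all genes past it). None was in WT cells (2.71%). CYC7, called higher with Hac1 depleted in the auxin experiment, had the lowest change of the 41 in hac1 deletion cells, -0.64, and 0.23 in WT cells. TIM11 changed by 0.07 and 0.32. The Spearman rho of the change with gene length was -0.372 in hac1 deletion cells and -0.340 in WT cells over these 41 genes, nearer zero than over the 42 genes in the auxin experiment.

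Complex III again had a larger median fall than the ATP synthase. All 9 complex III genes were past 2-fold lower in both strains and both molecules, with an mRNA median of -1.45 in hac1 deletion cells and -1.79 in WT cells. Of the 14 ATP synthase mRNAs, 2 were past 2-fold lower in hac1 deletion cells (median -0.84) and 10 in WT cells (median -1.11). COX26 again changed most: 64.7 mRNA RPKM with DTT in hac1 deletion cells, against 690.3 untreated, and 179 with DTT in WT cells, against 1629 untreated. Its mRNA change was -3.40 in hac1 deletion cells and -3.18 in WT cells, and its footprint change was -3.93 and -3.10. COX5B mRNA was 168 RPKM with DTT in hac1 deletion cells, against 55.6 untreated, and 232 with DTT in WT cells, against 101 untreated. Its footprints were 73.7 against 10.2 RPKM in hac1 deletion cells, and 94.8 against 30.0 in WT cells. COX5B mRNA stood at 11.4 and 23.3% of COX5A mRNA in the 2 libraries with DTT, against 1.02 to 3.47% in the 4 without.

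Over the genes measured in both experiments, whose libraries are separate, DTT in hac1 deletion cells and DTT with Hac1 depleted had Pearson's r of 0.669 in mRNA (42 genes) and 0.902 in footprints (41 genes). DTT in WT cells and DTT with Hac1 retained had r of 0.794 and 0.905. Without NDE2 and COX5B, the mRNA values were 0.734 and 0.903. They are descriptions over genes, which share libraries within an experiment.

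NDE2 was the member that went the other way. Its mRNA was 7.54 RPKM with DTT in hac1 deletion cells, against 1.65 untreated, and 10.1 with DTT in WT cells, against 3.20 untreated, changes of 1.69 and 1.41. In the auxin experiment it fell in both strains, and its level without DTT was 27.9 to 42.2 RPKM. The untreated deletion-experiment cells and the auxin-treated cells without DTT are different baselines.

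**Figure D4:**
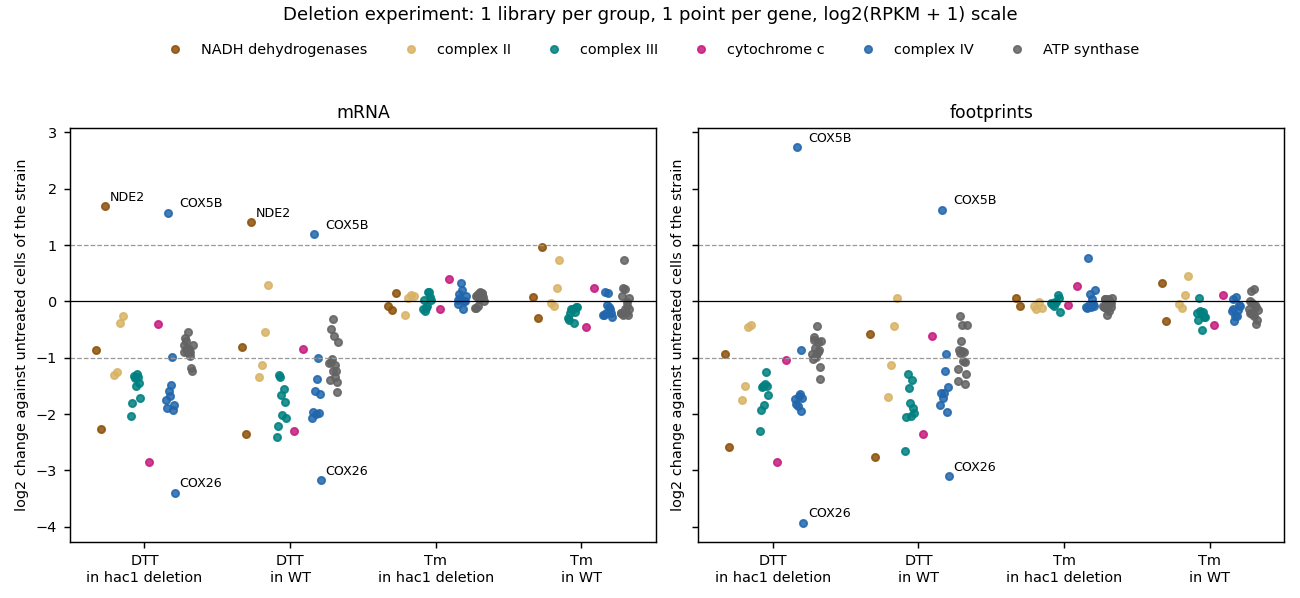
Log2 change of each gene with DTT and with Tm in the deletion experiment, hac1 deletion cells left of WT cells, mRNA and footprints, 1 library per group. Under DTT most genes lie below -1, and under Tm all lie between -1 and 1.

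With Tm, no member passed 2-fold in any of the 6 comparisons. In hac1 deletion cells the share of all genes past 2-fold was 0.755% in mRNA, 0.964% in footprints and 0.984% in translational efficiency. The members' median was 0.06 in mRNA, against 0.04 over all genes, and -0.05 in footprints, against 0.10. In WT cells the share was 13.3%, 14.2% and 1.59%. The members' median was -0.13 in mRNA, against 0.15 over all genes, and -0.15 in footprints, against 0.12. The WT range in mRNA ran from -0.46 (CYC1) to 0.96 (NDE2). COX26 mRNA was 739 RPKM with Tm in hac1 deletion cells, against 690.3 untreated, and 1339 with Tm in WT cells, against 1629 untreated. The HAC1 footprint level was 4405 RPKM with Tm and 6243 with DTT in WT cells, against 178 untreated. COX5B mRNA was 61.0 RPKM with Tm in hac1 deletion cells, against 55.6 untreated, and 113 in WT cells, against 101 untreated.

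ATP7 and SDH4 had higher mRNA with Tm in WT cells, below the 2-fold mark. ATP7, subunit d of the stator, had 2093 mRNA RPKM with Tm, against 1256 untreated, a change of 0.74. Its footprints were 1665 RPKM with Tm, against 1708 untreated, so that its translational efficiency changed by -0.77. In hac1 deletion cells ATP7 had 1822 mRNA RPKM with Tm, against 1669 untreated. SDH4 had 287 mRNA RPKM with Tm in WT cells, against 171 untreated, a change of 0.74, and 0.45 in footprints. These are single libraries, with no replicate check.

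Without stress, hac1 deletion cells against WT cells had 2 mRNAs past 2-fold lower and none higher, where 4.50% and 3.44% of all genes were. CYC7 mRNA was 38.3 RPKM in hac1 deletion cells and 165 in WT cells, a change of -2.08, and COX26 mRNA was 690.3 and 1629, a change of -1.24. In footprints CYC7 (-2.12) and COX5B (-1.47) were past 2-fold lower and ATP1 (1.09) higher, where 5.20% and 4.10% of all genes were. After rescaling to the median gene, 3 members were past 2-fold lower in each molecule and none higher. It also took the genes past 2-fold to 366 lower and 106 higher in mRNA, in place of 256 and 196, and to 374 and 123 in footprints, in place of 275 and 217. In translational efficiency none was, with 2.29% of all genes. Most other members had mRNA changes above 0, as did most of all genes. Of the 42 members, 35 were above 0 and 7 below, where 27.9% of all genes were below 0. The members' median was 0.30, against 0.21 over all genes. Rescaling took the members' median to 0.08, with 29 above 0. The summed MATa markers moved with this comparison, at 87.2 RPKM in hac1 deletion cells and 2638 in WT cells, and their part in it was not tested.

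The genes that surround the set did not move as one. Of 7 regulators of respiratory genes, 1 fell and 2 rose in mRNA with Hac1 depleted, and 2 rose with Hac1 retained. The shares of all genes called were 17.5% lower and 41.1% higher with Hac1 depleted and 12.0% and 28.6% with Hac1 retained, so the rises of this list are not above that background. HAP1, a haem-responsive activator, rose in mRNA in both strains, by 1.19 ± 0.15 with Hac1 depleted and 0.78 ± 0.18 with Hac1 retained. So did MGA2, a regulator of lipid and hypoxic genes, by 1.08 ± 0.15 and 1.10 ± 0.19. HAP4, the regulated activator subunit of the CCAAT-binding complex, was -0.01 ± 0.22 (adjusted p = 0.965, limma) and -0.69 ± 0.28 (adjusted p = 0.0689) in mRNA. Its footprints fell in both strains, by 0.49 ± 0.12 (adjusted p = 0.00627) and 0.75 ± 0.15 (adjusted p = 0.00295). HAP3, a DNA-binding subunit of that complex, fell in mRNA by 0.85 ± 0.23 with Hac1 depleted. HAP3 footprints rose by 0.42 ± 0.13 with Hac1 retained. ROX1, the repressor of hypoxic genes, was 0.41 ± 0.18 (adjusted p = 0.0654) and -0.03 ± 0.22 (adjusted p = 0.928) in mRNA.

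Of 8 partners of the ATP synthase, 4 fell and 3 rose in mRNA with Hac1 depleted, and 3 fell and 1 rose with Hac1 retained. The same shares of all genes apply, and the rises are again not above them. The main ADP/ATP carrier PET9 fell by 0.95 ± 0.22 with Hac1 depleted and by 1.46 ± 0.27 with Hac1 retained. The phosphate carrier MIR1 fell by 0.97 ± 0.19 and 1.39 ± 0.24. INH1, the inhibitor that blocks ATP hydrolysis by the enzyme, fell by 1.14 ± 0.26 and 1.70 ± 0.33, while STF2, named as a stabilising factor of the inhibited enzyme, rose by 1.40 ± 0.19 and 2.38 ± 0.24. In footprints STF2 rose by 2.34 ± 0.10 and 3.10 ± 0.12. STF1, a second inhibitor, rose in footprints by 1.56 ± 0.13 and 0.90 ± 0.17. With Tm in WT cells STF2 mRNA changed by 3.59, while INH1 (-0.08), PET9 (-0.35) and MIR1 (-0.34) did not pass 2-fold.

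Of 3 other dehydrogenases, CYB2, the lactate dehydrogenase that reduces cytochrome c, changed by -2.04 ± 0.23 in footprints with Hac1 depleted (adjusted p = 0.00012, limma) and by -3.37 ± 0.29 with Hac1 retained (adjusted p = 5.84e-05). Its mRNA changed by -1.16 ± 0.18 and -1.68 ± 0.23, and both molecules passed the test in both strains. GUT2, the mitochondrial glycerol-3-phosphate dehydrogenase, rose in mRNA by 1.33 ± 0.21 with Hac1 depleted and 0.90 ± 0.27 with Hac1 retained. DLD1, another lactate dehydrogenase, rose by 1.04 ± 0.15 with Hac1 depleted and changed by 0.08 ± 0.19 (adjusted p = 0.745) with Hac1 retained.

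Assembly factors went both ways. Of 32, 13 fell and 5 rose in mRNA with Hac1 depleted, with a median of -0.25, and 11 fell and 2 rose with Hac1 retained, with a median of -0.28. Over all genes 17.5% fell and 41.1% rose with Hac1 depleted (median 0.26), and 12.0% and 28.6% with Hac1 retained (median 0.24). Footprints had 16 lower and 6 higher with Hac1 depleted, where 19.8% and 49.6% of all genes were called, and 13 lower and 3 higher with Hac1 retained, where 14.6% and 47.5% were. COX17, a copper chaperone for complex IV, fell in mRNA by 1.11 ± 0.17 and 1.03 ± 0.22. CBP6, a translational activator of cytochrome b, fell by 0.90 ± 0.16 and 1.16 ± 0.20. ATP12, a chaperone of the ATP synthase head, fell by 0.89 ± 0.14 and 0.94 ± 0.17. Among those of complex II, SDH6 rose by 1.40 ± 0.18 and 1.13 ± 0.23, and SDH8 by 1.12 ± 0.15 and 0.77 ± 0.19. The others of complex II in the list had narrower ranges. Over all auxin libraries SDH5 mRNA lay at 194 to 327 RPKM and SDH7 mRNA at 170 to 214.

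Of 7 mitochondrially encoded subunits, 6 were high enough in mRNA to be tested. COX2 fell, by 0.95 ± 0.26 with Hac1 depleted (adjusted p = 0.00835, limma) and by 1.56 ± 0.33 with Hac1 retained (adjusted p = 0.00318), and ATP8 fell by 0.51 ± 0.13 with Hac1 depleted. Levels were low: COX2 mRNA lay at 10.6 to 37.8 RPKM over the auxin libraries and ATP8 mRNA at 54.9 to 122. In footprints 1 of the 7 was high enough, ATP8, and it was not called. Its footprints lay at 0 to 19.6 RPKM, with 0 in 4 libraries. How fully these libraries hold mitochondrial messages was not tested. Of the fermentative enzymes, ADH1 mRNA changed by 0.11 ± 0.10 with Hac1 depleted and 0.06 ± 0.13 with Hac1 retained, and PDC1 mRNA by 0.67 ± 0.18 (adjusted p = 0.00891) and 0.22 ± 0.23 (adjusted p = 0.474).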

How the data were processed

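The authors deposited 2 tables of RPKM values per gene and library, in separate tables per experiment, per the file headers and, for the auxin experiment, judged from the values. The submitters' processing notes name CASAVA, bcl2fastq 2.17 and Bowtie2. No source used here gives the genome build, the gene models or the use of strand in counting. RPKM divides by gene length and library total, so it shows shares of a library and not absolute amounts. The depth was estimated from the steps of low values, of which 81.1 to 90.3% came out as whole reads per library (tolerance 0.02).

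The genes of the set, the gene lists and the tests were chosen with earlier results of these data known. Genes averaging under 5 RPKM across a molecule's libraries were left out. All 42 genes passed in the auxin experiment, and in the deletion experiment 42 passed in mRNA and 41 in footprints. Values were tested as log2(RPKM + 1) with limma 3.58.1 in R 4.3.3 (mean-variance trend, group and hour as terms, 4 residual degrees of freedom), with Benjamini-Hochberg adjustment over all genes tested and a threshold of 0.05. The code was tested on simulated data. The hour is a labelled time, so it was kept as a block. The 2 h minus 1 h difference was correlated between groups, over 10 pairs of groups. Where both groups had DTT, r was 0.253 to 0.614 in mRNA and 0.586 to 0.77 in footprints. In pairs with "+TIR" cells given auxin alone, r was -0.094 to 0.186 and 0.019 to 0.057. The group without DTT thus hardly shared the hour change, yet the model used the same hour term for all groups. The Hac1-retained baseline has the 1 h library only, so its DTT change depends on that term. Python 3.11.15 was used for the counts. Gene lengths come from RefSeq (R64), which matched 5994 of the 6679 genes and all 42 of the set.

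Full statistics are given for the largest called change in each complex, genes called against their complex, and the isoform pairs. Other genes were named after their values were seen: SDH4, NDI1, ATP1, ATP2, ATP7, QCR8 and TIM11. Tried alternatives were a pseudocount of 0.1, no filter, median-ratio scaling, no hour block, and leaving out each library.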

Additional observations from a re-analysis of the deposited data

Results flagged for a closer look

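NDE2 mRNA moved in opposite directions with DTT in the 2 experiments. The log2 change was 1.69 in hac1 deletion cells and 1.41 in WT cells, but -1.09 with Hac1 depleted and -1.49 with Hac1 retained. The level without DTT was 1.65 and 3.20 RPKM in the deletion experiment and 27.9 to 42.2 RPKM in the auxin experiment. SDH4 mRNA changed by 0.30 with DTT in WT cells, but by -0.26 in hac1 deletion cells and by -0.17 with Hac1 retained. Neither difference was tested, since the deletion experiment has 1 library per group. No group had enough libraries for a search for single libraries far from the rest.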

How the results depend on the processing

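Counts of respiratory chain genes called were recomputed under each alternative. Translational efficiency with DTT and Hac1 depleted gave 4 calls without the filter on low values (12 with it), and the 2 h mRNA calls went to 0 without it (5 with it). Without the replicate block for the hour, the footprint calls between strains under DTT went to 0 (6 with it), and the auxin against vehicle mRNA call in "+TIR" cells to 0 (1 with it). The COX5B mRNA rise with Hac1 depleted was also lost, so that 0 genes of the set were called higher there (1 with it). The block moved no other count of calls within the set by over 1.5 times. With a pseudocount of 0.1, Tm in WT cells gave 1 mRNA past 2-fold (0 before). Leaving out single libraries gave 29 to 40 mRNA calls and 37 to 39 footprint calls for DTT with Hac1 depleted, 40 to 41 and 38 with Hac1 retained, and 0 to 13 for translational efficiency with Hac1 depleted. Between strains under DTT it gave 0 to 4 in mRNA and 0 to 2 in footprints. For the difference of the DTT responses it gave 0 to 9 in footprints. For auxin against vehicle in "+TIR" cells it gave 0 to 3 in mRNA and 0 to 1 in footprints. For 2 h against 1 h it gave 0 to 10 and 0 to 21. The causes of these moves were not tested. The "no TIR" library with auxin alone could not be left out, as it is the only one of its group. For 21 named genes in the 2 DTT comparisons and both molecules no direction was reversed; leaving out a library gave 236 values on the same side of the threshold, 3 newly past it and 13 no longer past it. Splitting one culture, RPKM as the unit and 1 to 2 libraries per group limit all of these results.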
